A study of Oryza sativa Japonica Group with 9 samples.

Results

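Terpene synthases were defined here as the genes whose deposited description carries the terpene synthase N-terminal domain (PF01397) or the terpene synthase metal-binding domain (PF03936). Of the 35902 genes in the deposited tables, 29 met this rule, 2 of them unannotated loci, called locus 1335 and locus 1448 here after their numbers in the deposited tables. Both domains were listed for 24 of the 29, the metal-binding domain alone for 3 and the N-terminal domain alone for 2. The data were RNA sequencing libraries from roots of rice (Oryza sativa Japonica), cultivar Nipponbare, in 3 groups of 3 biological replicates, grown with control nutrients, under N (nitrogen) deficiency or under P (phosphorus) deficiency. The sources used here give neither plant age nor how long or how strongly nutrients were withheld. The same 3 control libraries served both deficiencies, and the submitters stated an interest in genes tied to both N and P homeostasis.

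Terpene synthases turn prenyl diphosphates into the hydrocarbon skeletons of terpenes. In the diterpene branch, copalyl diphosphate synthases (CPS) first fold geranylgeranyl diphosphate into copalyl diphosphate, and kaurene synthase (KS) or kaurene synthase-like (KSL) enzymes then close the remaining rings. CPS1 and KS1 serve gibberellin, the growth hormone. CPS4 and KSL4 lead to momilactones, which rice roots also release into the soil, CPS2 and KSL7 to phytocassanes, and KSL8 to oryzalexin S. These products are antimicrobial phytoalexins, and several of their genes sit in clusters with cytochrome P450 genes on chromosomes 2 and 4. The remaining terpene synthases of plants mostly make volatile monoterpenes and sesquiterpenes.

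Each library held 17931041 to 22752492 reads assigned to genes. Levels below are normalised reads on 1 scale for all 9 libraries, given as mean ± SD (n = 3). Log2 fold changes carry their SE and come from the separately scaled deposited table of each deficiency, on the log2(value + 1) scale, where changes of genes with few reads come out too small. The 3 root markers (RCc3, Lsi1 and Lsi2) summed to 120186 to 132451 normalised reads in control, 120544 to 121444 under N deficiency and 83166 to 152231 under P deficiency, with P library 3 the lowest. Of 26 shoot markers (chlorophyll a-b binding and Rubisco small subunit genes), 24 had reads in every library. They summed to 23754 to 64222 in control, highest in control library 3, while N libraries held 7267 to 10329.5 and P libraries 18354.5 to 26313. Under N deficiency 19 of the 26 fell, and under P deficiency 1 did by limma, beside 5.94% and 2.70% of all genes tested. DESeq2 called 5 lower under P deficiency, and 5 were lower there at an unadjusted limma p under 0.05. Their median log2 fold change under P deficiency was -0.64, beside 0.00 over all genes tested. The part of this shoot signal in the results below was not tested. In bulk tissue, fewer cells of a type and less RNA per cell cannot be told apart.

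The 29 genes lay on 6 chromosomes, with 9 on chromosome 4, 8 on chromosome 2, 6 on chromosome 3, 4 on chromosome 8 and 1 each on chromosomes 10 and 11, in coordinates of the deposited tables, whose rice build is not named. Several formed tight groups. KSL3, KS1 and KSL2 stood side by side on chromosome 4 with 3.25 and 3.05 kb between them. On chromosome 8, Os08g0167800, Os08g0168000 and Os08g0168400 were 6.77 and 7.26 kb apart. CPS4 and KSL4 of the momilactone cluster were 102 kb apart, and KSL7, CPS2 and KSL5 lay in the chromosome 2 cluster. CPS2 was listed as 2 gene models, Os02g0570900 with the N-terminal domain and Os02g0571100 with the metal-binding domain, 0.847 kb apart.

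A few members held most of the family's signal. Per kb of gene length, KSL8 was highest in control, at 509 to 696 normalised reads per kb over the 3 libraries. Os04g0340300 followed at 289 to 503.5, then locus 1335 at 112 to 200.4 and CPS4 at 79.0 to 148. The ranges of the latter pair overlapped, whereas KSL8 stood above Os04g0340300 in each control library. With locus 1448, these members made up 83.3% to 88.5% of the summed level per kb in each library. The sum over all members was 1464 ± 198 reads per kb in control (SD, n = 3), 2702 ± 365 in the N group and 1769 ± 369 in the P group. Every N library, from 2314 to 3038, lay above every control library, from 1246 to 1634. P libraries ranged from 1497 to 2189 and overlapped the controls. Locus 1448 went from a mean of 6.72 reads per kb in control to 434 under N deficiency and 42.95 under P deficiency. It held 0.312% to 0.695% of the sum in control, 13.9% to 17.6% under N deficiency and 2.36% to 2.51% under P deficiency.

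**Figure D1:**
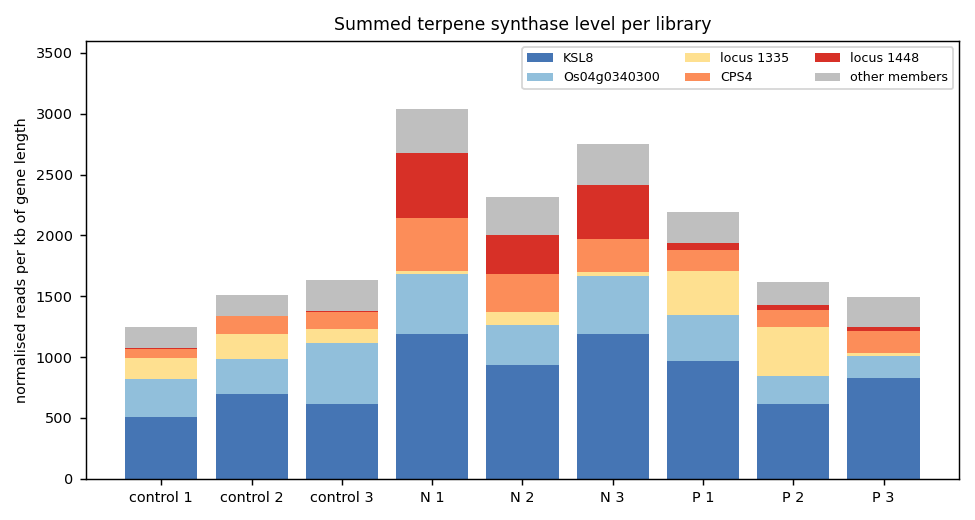
Summed terpene synthase level per library, in normalised reads per kb of gene length, stacked by the 5 members with the highest level in any group and the other members together. The 3 N libraries are the tallest bars, and locus 1448 is visible as a broad band under N deficiency, thin under P deficiency and barely visible in control.

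Under N deficiency, 8 terpene synthases rose and 3 fell of the 26 tested, or 42.3% called by limma at an adjusted p under 0.05, beside 12.8% of all 32680 genes tested (6.90% higher and 5.94% lower). Those that rose were CPS4, KSL3, KSL5, KSL8, KS1, locus 1448, Os02g0458100 and Os03g0361500, and those that fell were locus 1335, Os03g0347900 and Os08g0168000. The median log2 fold change of the 26 was 0.86, beside -0.01 over all genes tested. Under P deficiency, 2 of 25 tested passed (8.0%), locus 1448 higher and Os03g0347900 lower, beside 6.28% of all 32576 genes tested (3.58% higher and 2.70% lower), and the median log2 fold change was 0.28 beside 0.00. In the direct contrast of N against P deficiency, 3 of 26 were higher under N deficiency (locus 1448, CPS4 and KSL3) and none lower, or 11.5%, beside 3.78% of all 32806 genes tested (1.39% higher and 2.40% lower). edgeR and DESeq2 also called none lower there, and none was lower at an unadjusted p under 0.05. At an unadjusted p under 0.05 the counts in the 3 comparisons were 17, 8 and 8. All N libraries lay above all control libraries in 9 of 29 members and below them in 4, beside 30.9% of genes tested without overlap in either direction. These member counts include members that were not tested. P and control libraries did not overlap in 9 of 27 members, 5 higher and 4 lower, beside 27.8%. N libraries lay above all P libraries in 7 of 27 members and below in 0, beside 21.1%. Of the 26 members tested under N deficiency, 2 reached the minimum level of 1 normalised read through control alone and 3 through N deficiency alone. Among the members called, these were Os08g0168000, through control alone, and KSL5, through N deficiency alone. Of the 25 tested under P deficiency, 3 reached this level through control alone and 2 through P deficiency alone. In the authors' deposited table an adjusted p under 0.05 was given to 10 of 29 members under N deficiency (13.7% of all genes listed) and in the authors' deposited table for P deficiency to 2 of 27 (9.36%). Without P library 3, 4 members passed under P deficiency instead of 2, and without P library 1 or control library 1 or 2 there was 1. In N against P deficiency, leaving out P library 3 gave 5 instead of 3, among them locus 1335 as lower under N deficiency. Without N library 3 or without P library 2, 1 member passed in N against P deficiency.

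**Figure D2:**
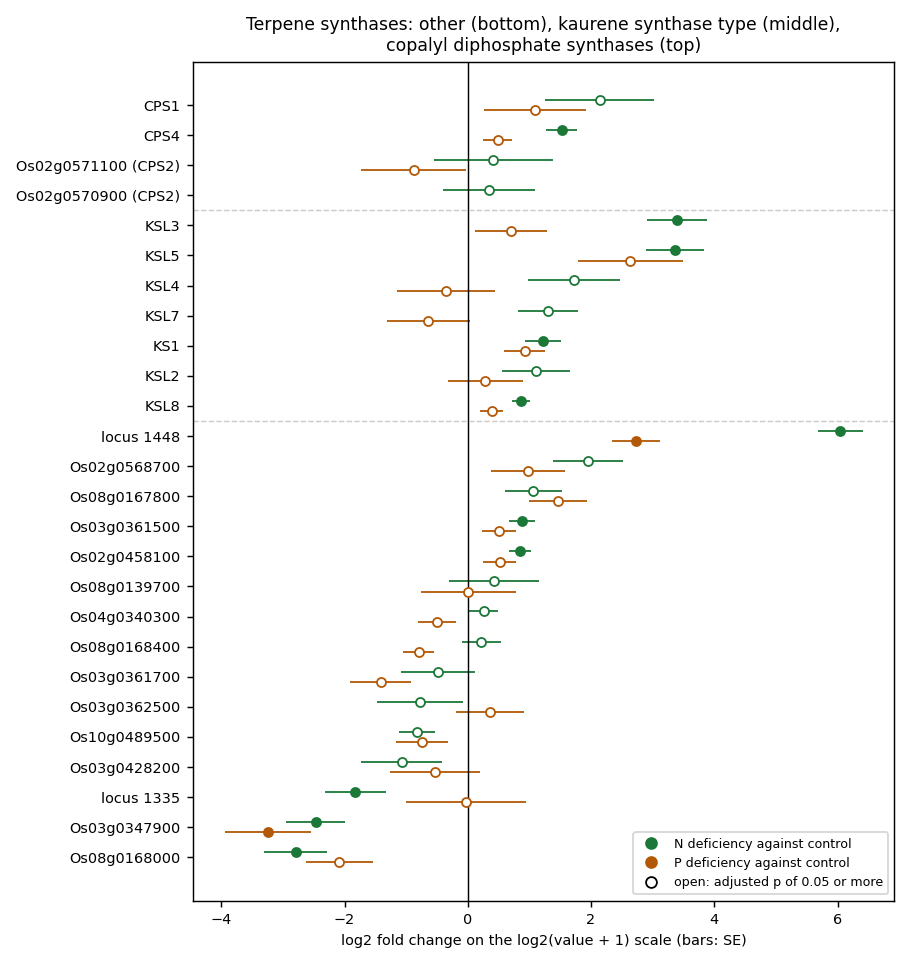
Log2 fold change of each tested terpene synthase against control (points, with SE bars), for N deficiency in green and P deficiency in orange, grouped by role, with filled points for an adjusted p under 0.05. All CPS, KS and KSL points for N deficiency lie right of 0, and locus 1448 lies farthest right at 6.04.

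Among copalyl diphosphate synthases, CPS4 rose under N deficiency. CPS4 (Os04g0178300; chromosome 4, 5318070 to 5326425, plus strand) makes the syn-copalyl diphosphate used for momilactones and oryzalexin S. Its levels were 255, 477 and 441 normalised reads in control libraries 1, 2 and 3, 1403, 1014 and 891 in the N libraries, and 554, 454 and 583 in the P libraries. All N libraries stood above all control and P libraries, while control and P libraries overlapped. Mean levels were 391 ± 119, 1103 ± 267 and 530 ± 67.5 (SD, n = 3). The log2 fold change was 1.52 ± 0.252 under N deficiency (limma, adjusted p = 0.0056) and 0.48 ± 0.238 under P deficiency, where the gene did not pass (limma, adjusted p = 0.30). The direct contrast was 1.04 ± 0.242 higher under N than under P deficiency (limma, adjusted p = 0.045), a call lost with the replicate number as a block and without N library 1, 2 or 3 or P library 1 or 2 (limma, adjusted p up to 0.16).

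CPS1 (Os02g0278700; chromosome 2, 10273719 to 10283727, minus strand), the gibberellin enzyme, had few reads and uneven replicates. It stood at 2.25, 28.3 and 2.72 normalised reads in the control libraries, at 19.4, 75.2 and 18.1 under N deficiency and at 15.4, 17.4 and 10.4 under P deficiency. Control library 2 and N library 2 were the high ones of their groups. Control libraries overlapped both deficiencies, and N libraries stood just above P libraries. The log2 fold change under N deficiency was 2.14 ± 0.886 and did not pass (limma, adjusted p = 0.17). It passed without control library 2 or with the replicate number as a block (limma, adjusted p as low as 0.013). The CPS2 models had 7 and 29 reads in all over the 9 libraries and did not pass in any comparison in which they were tested. An antisense gene model, Os02g0571000, overlaps both of them, and without strand information their reads cannot be told apart from its 10.

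Kaurene synthase-type genes had positive log2 fold changes under N deficiency in 7 of 7 cases and 4 passed, where 16031 of all 32680 genes tested were positive and 12.8% called. Under P deficiency 5 of 7 were positive, where 16313 of all 32576 genes tested were, and 0 passed by limma, edgeR or DESeq2, against 2 at an unadjusted p under 0.05. KSL8 (Os11g0474800; chromosome 11, 16435035 to 16440299, minus strand), the stemarene synthase of oryzalexin S and the highest member per kb, stood at 798, 1092 and 966 normalised reads in control. The N libraries held 1869, 1469.85 and 1862, and the P libraries 1516, 964 and 1293. All N libraries were above all control libraries, whereas P libraries overlapped both. Its rise under N deficiency was 0.87 ± 0.145 on the log2 scale (limma, adjusted p = 0.0057), and under P deficiency the difference was 0.39 ± 0.189 and did not pass (limma, adjusted p = 0.29).

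KS1 (Os04g0611800; chromosome 4, 31027347 to 31031039, plus strand), the ent-kaurene synthase of gibberellin synthesis, stood at 25.9, 32.1 and 53.4 normalised reads in control, at 73.2, 78.1 and 101 under N deficiency and at 94.6, 60.2 and 55.1 under P deficiency. Control libraries were below all others, and N and P libraries overlapped. The rise under N deficiency was 1.21 ± 0.293 (limma, adjusted p = 0.029), a call lost without N library 1, 2 or 3 or control library 1 or 2 (limma, adjusted p up to 0.115). Under P deficiency the log2 fold change was 0.92 ± 0.335 and did not pass (limma, adjusted p = 0.17). The neighbouring KSL3 (Os04g0611700; chromosome 4, 31019367 to 31024094, plus strand) was near 0 in control, at 1.12, 2.83 and 0.91 normalised reads, and reached 13.9, 35.6 and 31.4 under N deficiency against 4.73, 1.02 and 4.75 under P deficiency. N libraries stood above all others. KSL3 rose by 3.40 ± 0.486 under N deficiency (limma, adjusted p = 0.0028), and the P deficiency value of 0.70 ± 0.580 did not pass (limma, adjusted p = 0.55). N exceeded P deficiency by 2.68 ± 0.550 on the log2 scale (limma, adjusted p = 0.025), a call lost with a pseudocount of 0.1 and without N library 2 or 3 or P library 2 (limma, adjusted p up to 0.11). KSL2, the last of this row of genes, held 18.0, 5.67 and 9.96 reads in control and 11.1, 42.5 and 24.7 under N deficiency, with overlapping groups, and did not pass (limma, adjusted p = 0.26).

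In the chromosome 2 cluster, KSL5 (Os02g0571300; 21853581 to 21863592, minus strand), a pimaradiene synthase in japonica rice, had 1 read over the 3 control libraries. Under N deficiency it stood at 14.8, 11.9 and 8.56 normalised reads and under P deficiency at 13.0, 16.3 and 0.95. P library 3 was near control, and the other P libraries were as high as the N libraries. The ratio of N deficiency to control was 35.9, with a 95% counting interval of 6.06 to 1458, and that of P deficiency to control was 29.7 (4.91 to 1214). KSL5 rose under N deficiency (limma, adjusted p = 0.0025), did not pass under P deficiency (limma, adjusted p = 0.13) and passed there without P library 3 (limma, adjusted p = 0.0085). KSL7 (Os02g0570400; 21765011 to 21773418, plus strand), the cassadiene synthase of phytocassanes, held 11.2, 15.1 and 33.5 normalised reads in control, 84.3, 35.6 and 31.4 under N deficiency and 8.28, 5.10 and 30.4 under P deficiency. Control library 3 overlapped the N libraries. The difference under N deficiency was 1.30 ± 0.488 on the log2 scale and missed the threshold (limma, adjusted p = 0.13).

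KSL4 (Os04g0179700; chromosome 4, 5428347 to 5434023, minus strand), the momilactone partner of CPS4, was likewise uneven among controls. It stood at 3.37, 8.50 and 46.2 normalised reads in the control libraries, at 42.6, 32.6 and 46.6 under N deficiency and at 7.10, 9.19 and 10.4 under P deficiency. Control library 3 was as high as the N libraries. It also had the highest shoot marker sum, whereas the N libraries had the lowest sums, and a link to KSL4 was not tested. The log2 fold change under N deficiency was 1.72 ± 0.748 and did not pass (limma, adjusted p = 0.19). Without control library 3 both passed, KSL4 (limma, adjusted p = 0.0063) and KSL7 (limma, adjusted p = 0.0496).

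**Figure D3:**
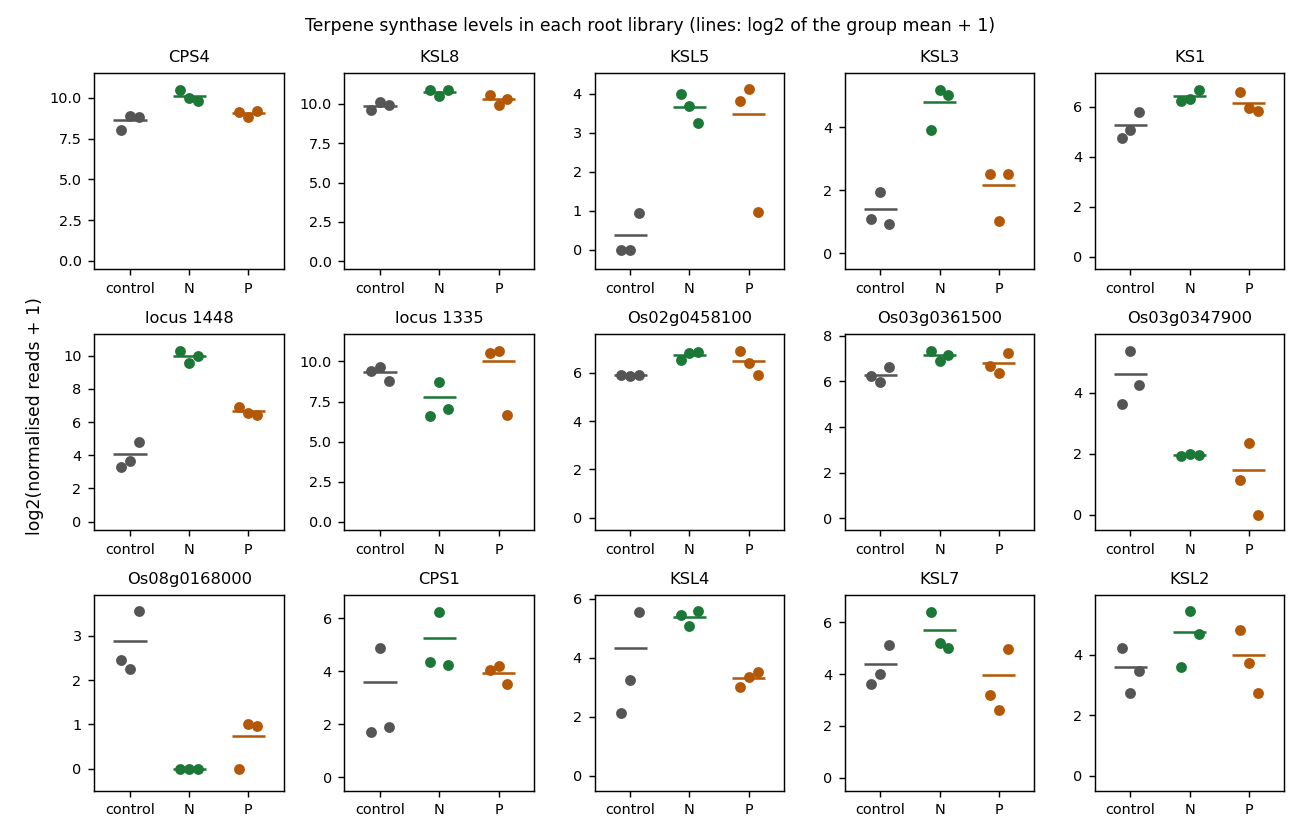
Level of the 11 terpene synthases that passed in any comparison and of CPS1, KSL4, KSL7 and KSL2 in each library, as log2(normalised reads + 1), with points for libraries 1 to 3 from left to right and a line at the group mean. N libraries of locus 1448 stand between 744 and 1238 reads against 8.99 to 26.3 in control, and P library 3 stands apart in KSL5 and locus 1335.

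The largest change in the family was that of locus 1448, an unannotated gene model with both terpene synthase domains (chromosome 4, 16006919 to 16013230, minus strand). It held 8.99, 11.3 and 26.3 normalised reads in the control libraries, 1238, 744 and 1027 in the N libraries and 119, 93.9 and 84.5 in the P libraries. The groups did not overlap: each P library exceeded each control library, and each N library exceeded each P library. The means were 15.5 ± 9.37, 1003 ± 248 and 99.3 ± 18.1 (SD, n = 3). Per kb, the locus went from rank 12 of the family in control to rank 2 under N deficiency and rank 7 under P deficiency. The rise was 6.04 ± 0.364 on the log2 scale under N deficiency (limma, adjusted p = 7.0e-05) and 2.73 ± 0.394 under P deficiency (limma, adjusted p = 0.0091). N exceeded P deficiency by 3.31 ± 0.347 (limma, adjusted p = 0.00041). Each of these calls held under every alternative tried, with an adjusted p of up to 0.0488 under P deficiency.

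Other members lay close by, locus 1335 at 58.05 kb and Os04g0340300 at 44.7 kb. The unannotated locus 1335 (chromosome 4, 15941650 to 15948863, plus strand) had a different pattern. Its levels were 690, 797 and 445 normalised reads in control, 95.4, 427 and 132 under N deficiency and 1444, 1594 and 99.7 under P deficiency. N libraries were below the controls, N library 2 only just, and the P libraries split, with 1 and 2 above every control library and 3 below them all. The fall of 1.83 ± 0.493 on the log2 scale under N deficiency passed narrowly (limma, adjusted p = 0.045) and was lost in 9 of 14 alternatives, which were a pseudocount of 0.1, edgeR, DESeq2, 1 fit over all libraries, and leaving out N library 1 or 3 or any control library (adjusted p up to 0.285). Under P deficiency the log2 fold change was -0.03 ± 0.972 with all libraries (limma, adjusted p = 0.99) and 1.27 without P library 3, which then passed (limma, adjusted p = 0.018). Without P library 3 locus 1335 also passed in N against P deficiency, as lower under N deficiency (limma, adjusted p = 0.0085). Os04g0340300 (chromosome 4, 16057969 to 16068256, minus strand) stood at 649, 609 and 1060.3 reads in control, 1036, 684 and 1005 under N deficiency and 803, 484 and 382 under P deficiency. Its groups overlapped in both comparisons, and its log2 fold changes of 0.26 ± 0.234 and -0.50 ± 0.304 did not pass (limma, adjusted p = 0.56 and 0.40). Reads shared between near-identical copies in this stretch could not be assessed here.

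Aldo/keto reductase genes, which code for NADPH-dependent oxidoreductases, lie beside these terpene synthases. Os04g0339400 is between locus 1335 and locus 1448, and the others lie on the far side of locus 1335. These genes were singled out after their values were seen. Of 5 within 170 kb of locus 1448, 3 rose under N deficiency and 3 rose under P deficiency: Os04g0337500, Os04g0338100 and Os04g0339400 in both cases. Over all genes tested, 6.90% rose under N deficiency and 3.58% rose under P deficiency. The gaps from Os04g0337500 and Os04g0338100 to locus 1448 are 113 and 78.8 kb. The nearest, Os04g0339400 (16001505 to 16005150, plus strand), held 8.99, 7.56 and 14.5 normalised reads in control, 25.9, 34.6 and 22.8 under N deficiency and 39.03, 78.6 and 102 under P deficiency. N libraries were above the controls and P libraries above the N libraries. It rose by 1.37 on the log2 scale under N deficiency (limma, adjusted p = 0.032) and by 2.65 under P deficiency (limma, adjusted p = 0.013). The gap between Os04g0339400 and locus 1448 is 1.77 kb. Its N against P deficiency difference was -1.28 on the log2 scale and did not pass (limma, adjusted p = 0.12), whereas locus 1448 was higher under N deficiency.

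**Figure D4:**
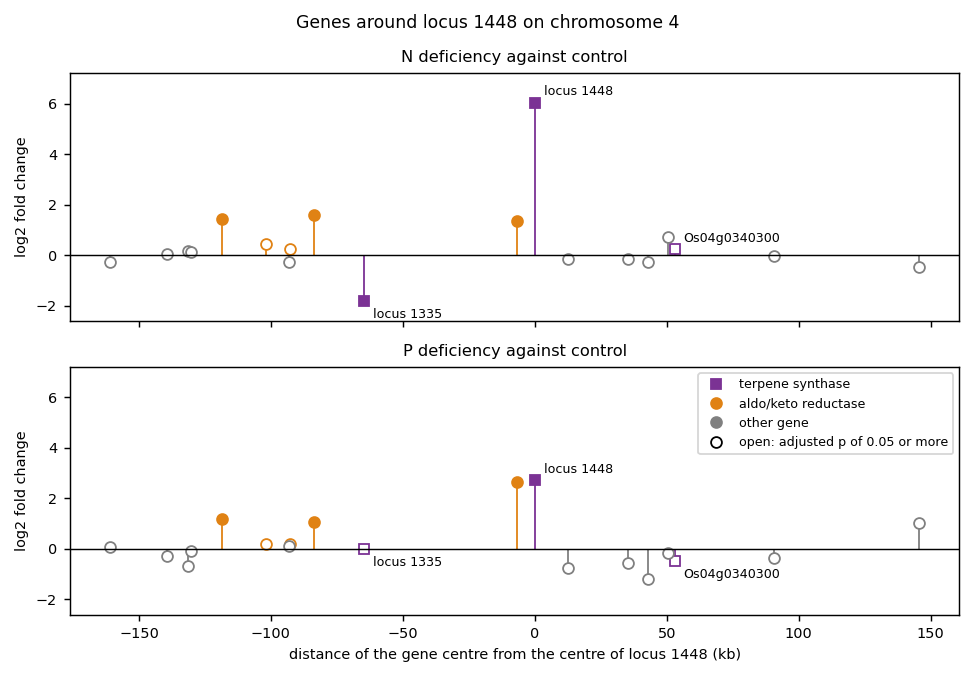
Log2 fold change against control of the genes within 170 kb of locus 1448, by distance of the gene centre in kb, for N deficiency (top) and P deficiency (bottom), with filled symbols for an adjusted p under 0.05. The terpene synthase locus 1448 rises above its neighbours at 6.04 under N deficiency, while under P deficiency it and Os04g0339400 are similar, at 2.73 and 2.65.

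Among the other terpene synthases, Os03g0361500 and Os02g0458100 rose moderately under N deficiency. Os03g0361500 (chromosome 3, 14043259 to 14047463, minus strand), listed with the metal-binding domain alone, went from 74.2, 61.4 and 96.9 normalised reads in control to 161, 119.7 and 144 under N deficiency, with 103, 82.7 and 152 under P deficiency. N libraries were above the controls and P libraries overlapped both. Os02g0458100 (chromosome 2, 15263803 to 15283324, minus strand) had even controls at 59.6, 56.7 and 59.8 reads, and held 92.6, 112 and 115 under N deficiency and 119, 83.7 and 59.8 under P deficiency. The rises under N deficiency were 0.88 ± 0.210 (limma, adjusted p = 0.028) and 0.85 ± 0.171 (limma, adjusted p = 0.013). The call of Os03g0361500 was lost without N library 1 or 3 or control library 1 or 2 (limma, adjusted p up to 0.099), and that of Os02g0458100 without N library 3 or control library 2 (limma, adjusted p up to 0.064). Neither passed under P deficiency, with 0.51 ± 0.274 and 0.52 ± 0.263.

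Both remaining members that fell were low genes. Os08g0168000 (chromosome 8, 3972195 to 3977096, plus strand) held 4.50, 3.78 and 10.9 normalised reads in control and none in any N library, 20 reads against 0. It fell under N deficiency (limma, adjusted p = 0.0086). With 3 reads taken as the most that 0 reads over the N group allow, and the 20 control reads taken as exact, it was 6.86-fold lower. Under P deficiency it had 2 reads, a ratio of control to P deficiency of 9.43 with a 95% counting interval of 2.29 to 83.2, and did not pass (limma, adjusted p = 0.068). Its neighbours Os08g0167800 and Os08g0168400, a few kb on either side, had log2 fold changes under N deficiency of 1.06 ± 0.464 and 0.22 ± 0.314 and missed the threshold. Without control library 3, Os08g0167800 passed as higher under N deficiency (limma, adjusted p = 0.027) and under P deficiency (limma, adjusted p = 0.034). Os03g0347900 (chromosome 3, 13035374 to 13046115, minus strand) went from 11.2, 40.6 and 18.1 reads in control to 2.78, 2.97 and 2.85 under N deficiency and 1.18, 4.08 and 0 under P deficiency, with controls above all others. It fell by 2.47 ± 0.480 on the log2 scale under N deficiency (limma, adjusted p = 0.011) and by 3.25 ± 0.700 under P deficiency (limma, adjusted p = 0.039). The call under P deficiency was lost with edgeR, with a pseudocount of 0.1, without P library 1 and without control library 1, 2 or 3 (adjusted p up to 0.135). Its span shares 639 bases with Os03g0347800 on the other strand, which had 1210 reads against 87 for the member, a log2 fold change of -0.19 under N deficiency and no call.

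The other members tested under N deficiency did not pass, and with CPS1, CPS2, KSL2, KSL4 and KSL7 their log2 fold changes ran from -1.07 to 2.14. Closest to the threshold was Os02g0568700 (chromosome 2, 21627356 to 21642080, minus strand), with 0 reads in control, 10 over the N libraries and 4 over the P libraries (limma, adjusted p = 0.058 under N deficiency). With 3 reads taken as the most that 0 control reads allow, the N deficiency level was 3.24-fold higher. This figure takes the 10 N reads as exact, so it is not a lower limit of the change. It passed with a pseudocount of 0.1, with no filter on low values and without N library 3 (limma, adjusted p as low as 0.0368). Os10g0489500 was even in control, at 29.2, 27.4 and 29.9 reads, and lower in each N library, at 15.7, 11.9 and 20.9, but did not pass (limma, adjusted p = 0.11). The linalool synthase gene Os02g0121700 and Os04g0344400 had 2 reads each over the N libraries, none in control, and Os03g0348200 had 3 reads over the 9 libraries. These were not tested.

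The supply of precursors for terpenes comes from the plastid MEP (methylerythritol phosphate) pathway and the cytosolic mevalonate pathway. Of 8 MEP pathway genes tested under N deficiency, 4 rose and 1 fell, with a median log2 fold change of 0.53 beside -0.01 over all genes tested. For this and the next lists, 6.90% of all genes tested rose and 5.94% fell under N deficiency. Under P deficiency 3.58% rose and 2.70% fell, and in N against P deficiency 3.78% were called. Os07g0190000, a 1-deoxy-D-xylulose 5-phosphate synthase gene for the first step of the pathway, went from 162 to 983 mean normalised reads under N deficiency, a rise of 2.63 on the log2 scale, and to 343 under P deficiency, where it missed the threshold. It was higher under N than under P deficiency by 1.52 on the log2 scale (limma, adjusted p = 0.0062). Another gene for this step, Os05g0408900, fell from 1699 to 670.1 under N deficiency, by 1.31 on the log2 scale. Os03g0732000, with the LytB domain of the last step, rose by 1.31, and the smaller risers were Os01g0106900 at 0.54 and Os02g0680600 at 0.59. Another gene with the LytB domain, Os03g0731900, was far higher in control, at a mean of 1258 normalised reads against 42.6 for Os03g0732000. Its log2 fold change under N deficiency was 0.20 and did not pass (limma, adjusted p = 0.29). Under P deficiency 1 of 8 rose, Os02g0680600. None of 6 mevalonate pathway genes passed by limma in any comparison. At an unadjusted p under 0.05 there were 0 under N deficiency, 1 under P deficiency and 1 in N against P deficiency. edgeR called 0 in each and DESeq2 0, 1 and 0. Of 10 prenyl diphosphate synthase genes, 2 rose (Os01g0248701 at 2.01 and Os07g0580900 at 0.68) and 2 fell (Os05g0582300 at -0.93 and Os05g0582350 at -1.16) under N deficiency. Under P deficiency 1 rose and 1 fell. Os05g0582300 and Os05g0582350 overlap on opposite strands, and without strand information reads in their shared stretch cannot be told apart. For the other terpenoid branches, 1 of 6 squalene and phytoene synthase genes fell under N deficiency. None of 8 oxidosqualene cyclase genes passed by limma in either deficiency, against 2 and 1 at an unadjusted p under 0.05, 0 and 0 by edgeR and 0 and 1 by DESeq2.

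Cytochrome P450 and short-chain dehydrogenase genes, families that include the enzymes acting after the diterpene synthases, were listed where they lay within 100 kb of a member. Of 9 tested under N deficiency, 2 rose and 1 fell, beside 6.90% and 5.94% of all genes tested. CYP99A3 (Os04g0178400), a momilactone P450 5.94 kb from CPS4, went from 316 to 780.4 mean normalised reads under N deficiency and stood at 359 under P deficiency. It rose by 1.31 on the log2 scale under N deficiency (limma, adjusted p = 0.0037) and was 1.12 higher there than under P deficiency (limma, adjusted p = 0.017). OsMAS (Os04g0179200), a momilactone dehydrogenase gene between CPS4 and KSL4, differed by 0.92 on the log2 scale and missed the threshold (limma, adjusted p = 0.11). In the chromosome 2 cluster the P450 genes went in both directions. CYP76M5 (Os02g0569000) rose by 1.76 on the log2 scale from 11.7 to 43.8 reads, and CYP76M8 (Os02g0569400) fell by 2.81 from 118 to 16.4. CYP76M8 also fell under P deficiency, by 2.14 on the log2 scale (limma, adjusted p = 0.013).

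**Figure D5:**
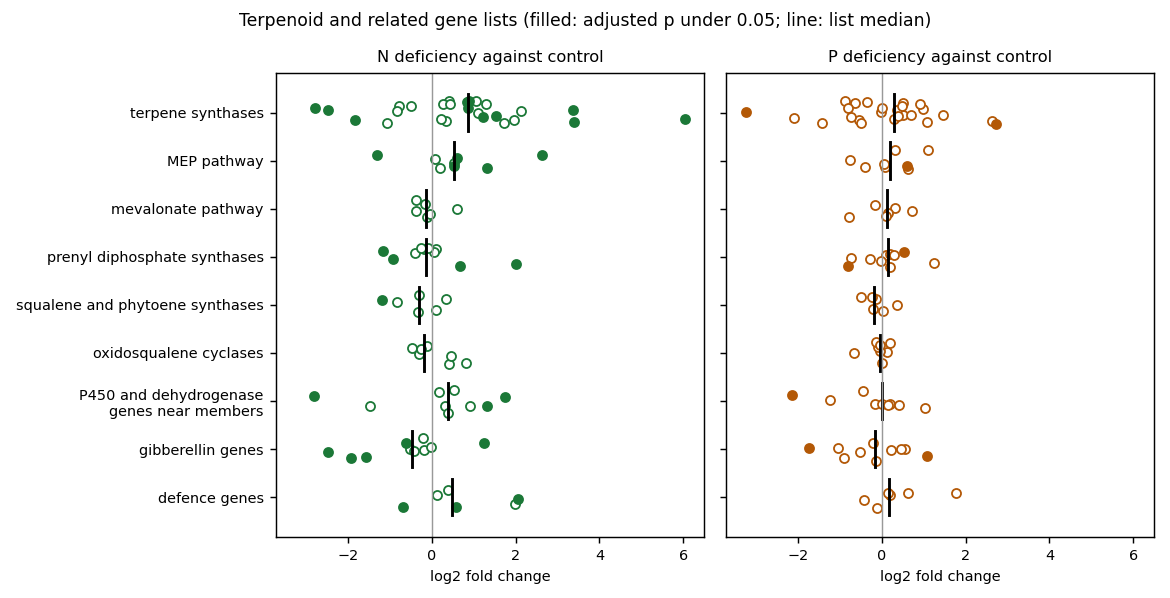
Log2 fold change against control of each tested gene in the terpenoid and related lists, for N deficiency (left) and P deficiency (right), with filled points for an adjusted p under 0.05 and a black line at the list median. Terpene synthases have the widest spread, from -2.79 to 6.04 under N deficiency, and their median of 0.86 lies above those of the other lists.

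Of 10 genes of gibberellin synthesis, breakdown and response, 1 rose and 4 fell under N deficiency, where KS1 rose. Over all genes tested, 6.90% rose and 5.94% fell under N deficiency, and 3.58% rose and 2.70% fell under P deficiency. GA20ox1, a gibberellin 20-oxidase, rose by 1.24 on the log2 scale from 238 to 565 mean reads, while KAO (-1.58), SD1 (-1.93), GA3ox2 (-2.48) and the receptor gene GID1 (-0.62) fell. Under P deficiency GA20ox1 rose by 1.07 and KAO fell by 1.73. Among 6 defence genes, DPF, a bHLH factor known to activate diterpenoid phytoalexin genes in rice, rose from 270 to 1099 mean reads under N deficiency, by 2.06 on the log2 scale (limma, adjusted p = 0.0012), and stood at 406 under P deficiency. DPF was higher under N than under P deficiency by 1.43 (limma, adjusted p = 0.0099). TGAP1, a bZIP regulator of the same clusters, rose by 0.58 (limma, adjusted p = 0.044), and the pathogenesis-related gene PR1a fell by 0.70 on the log2 scale. PR1b, PR10a and WRKY45 did not pass under N deficiency, and none of the 6 passed under P deficiency by limma, edgeR or DESeq2, against 2 at an unadjusted p under 0.05. The defence list summed to 37433 to 41432 normalised reads in control, 26689 to 32732 in the N libraries and 30118 to 45764 in the P libraries, most of it from PR1a.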

How the data were processed

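Per the labels' protocols, root RNA was made into TruSeq RNA libraries, and HISAT2 2.0.5 and the assembly name hg38, which is human, are in the submitters' processing notes. The sources used here name no rice build, read counter, strand setting or size-factor method. Each deposited library column is a normalised signal: gene read counts divided by 1 size factor, separately in each of 2 tables of 35128 and 35059 genes. Whole reads were recovered for 100% of values (tolerance 0.001), and over 34285 shared genes the control reads were the same in both tables. The log2 fold change and p-value columns are the authors' own, deposited with no test named.

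Levels are recovered reads divided by median-of-ratios size factors over all 9 libraries. Differences were tested on log2(value + 1) by limma-trend (limma 3.58.1 in R 4.3.3), for genes with a mean of at least 1 in a group, and a Benjamini-Hochberg adjusted p under 0.05 over all genes tested. Each deficiency was tested against control within its own table, and N against P deficiency over all 9 libraries on the common scale. Alternatives were edgeR 4.0.16, DESeq2 1.42.0 and TMM-scaled CPM on the recovered reads, other pseudocounts and filters, a replicate block, 1 common fit and each library left out.

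Members and lists were chosen with earlier results of these data known. Members that passed, CPS, KS and KSL genes and the unannotated loci are given per library, the others by range and counts. Of the CPS, KS and KSL names, 10 came from a RefSeq gene table of assembly ASM3414082v1, matched by chromosome and order, as did 7 of P450 and dehydrogenase genes, and KSL8 from general knowledge. Intervals and floors cover counting error only.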

Additional observations from a re-analysis of the deposited data

How the results depend on the processing

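Of the 11 terpene synthases called under N deficiency, 7 (CPS4, KSL3, KSL5, KSL8, locus 1448, Os03g0347900 and Os08g0168000) passed under every alternative that gave them an adjusted p, and 4 missed the threshold in at least 1. Under P deficiency and in N against P deficiency, locus 1448 passed under each. Leaving out 1 library gave 8 to 13 members under N deficiency, 1 to 4 under P deficiency and 1 to 5 in N against P deficiency, and for all genes 2622 to 3710, 696 to 3384 and 689 to 1577. Under P deficiency 1 member passed with edgeR and 1 with a pseudocount of 0.1. DESeq2 called 5 members in N against P deficiency, and over all genes 3284 under P deficiency and 2274 in N against P deficiency. The value of locus 1335 under P deficiency, -0.03 with all libraries, ran from -0.71 to 1.27 with 1 library left out, 1.27 being the value without P library 3, and the cause was not tested. Other changes of sign were in members not called in either fit. Whether the replicate numbers pair the samples was not settled. Deviations from the group means of same-numbered libraries had r from -0.056 to 0.217, with 5 of 9 pairs over 0.1. Differently numbered libraries had r from -0.238 to 0.133. With the replicate number as a block, 12, 2 and 2 members passed, and 4661, 2106 and 1522 genes in all. Members with a few reads per library, among them CPS2, KSL5 and Os08g0168000, are limited by depth.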
